A study of Mus musculus with 2 samples.

Results

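The genes described here are the nuclear-encoded respiratory chain genes of the mouse, the genes for the oxidative phosphorylation machinery of the inner mitochondrial membrane that are read from nuclear chromosomes. They were taken by name, as all symbols of the deposited gene list that begin with Nduf, Uqcr, Atp5, Cox4i, Cox5, Cox6, Cox7 or Cox8, together with Sdha, Sdhb, Sdhc and Sdhd. This gave 90 of 17775 genes, with 44 in complex I, 4 in complex II, 8 in complex III, 18 in complex IV and 16 in complex V. The complex I genes divide into 7 core subunits, 29 accessory subunits and 8 assembly factors, which help to build the complex and are not part of it. Ndufa4 and its relative Ndufa4l2 were counted with complex IV. Mitochondrially encoded subunits were represented by 0 genes in the matrix, so every value below concerns nuclear transcripts.

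Single-cell 5' RNA libraries were made from tumours of MC38, a mouse colon carcinoma line, of which 200000 cells had been put into the back of each C57BL/6 mouse. From day 7 on, gavage was given for 14 days with DFMO, which blocks ornithine decarboxylase, the first enzyme of polyamine synthesis, or with water, and the sources differ on how often per day. Tumour cells were dissociated, passed through a Ficoll step meant to obtain immune cells, pooled from 4 mice per group and sequenced as 1 library per group. A difference between the groups and a difference between the libraries or preparations therefore cannot be told apart, there was no replicate, and no test was possible; all intervals are 95% intervals that cover counting error only.

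Complexes I to IV pass electrons from NADH and succinate to oxygen, and complexes I, III and IV pump protons across the inner membrane as they do so. Complex V, the ATP synthase, lets the protons flow back and makes ATP. Most subunits are encoded in the nucleus and imported. Activated and dividing lymphocytes, macrophages and tumour cells are known to differ in how far they rely on this machinery, and several subunits of complexes IV and V exist as tissue-specific isoforms.

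After filtering, 4421 DFMO cells and 6150 water cells were kept, with 23383042 and 58368594 UMIs (unique molecular identifiers, 1 per captured RNA molecule). The median per cell was 2208 UMIs in the DFMO library and 6334.5 in the water library. Cells were grouped into 19 clusters without using the 90 genes. Although the label calls the cells immune, clusters 1, 2, 3 and 13 held Ptprc, which encodes the pan-leukocyte antigen CD45, at 0.816 to 2.10 UMIs per 1000000 UMIs (CPM), against 91.3 to 684.8 CPM in 14 leukocyte clusters. Cluster 2 was fibroblast-like by its markers, and clusters 1, 3 and 13 are called Ptprc-low here; the 7 tumour epithelium markers, of which 6 are in the matrix, gave no cluster that name and summed to 0.327 CPM in DFMO and 25.1 CPM in water over clusters 1, 3 and 13. These 3 clusters made up 12.01% of kept cells in the DFMO library and 30.2% in the water library, and the B cell-like cluster 0 held 1485 and 57 cells. Because the mixtures differed this much, the libraries are compared below within clusters.

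Where the genes share sequence in their promoters was looked up first, since the rule used names only. RefSeq start-site windows on GRCm38.p6, from 250 bases before to 50 bases after the start, were matched for 72 of the 90 genes and for 27025 genes in all. The palindrome bound by NRF1, a transcription factor known for its part in the control of respiratory genes, is printed in capitals in the windows below and was searched with those letters. It stood on either strand in the windows of 7 of the 72 genes (9.72%), against 1.07% of all genes. A looser form with any base at the sixth letter, which includes the first, stood in 18 (25%) against 5.19%. The letters CCGGAAG, a core bound by ETS factors such as GABPA, stood in 18 (25%) against 9.93% of all genes. The hypoxia core ACGTG stood in 22.2% of the members and 21.8% of all genes, and the other core, GCGTG, in 56.9% against 35.2%. A match describes letters in a window and is not a measured binding site. The windows below are shown because they hold the full palindrome before the RefSeq start of genes from complexes I, IV and V. They include those of Atp5k and Cox6a1, whose values are given further on. Each is 50 bases, 5′ to 3′ on the gene's strand, with the palindrome in capitals. The bounds of Atp5k given further on come from another annotation, GENCODE, and reach into its palindrome. The palindrome of Atp5k thus lies before the RefSeq start only.

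Atp5k, chr5:108434420-108434469, minus strand, palindrome at positions -50 to -41 from the start: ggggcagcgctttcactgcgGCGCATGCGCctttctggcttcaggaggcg
Cox6a1, chr5:115349091-115349140, minus strand, palindrome at positions -162 to -153: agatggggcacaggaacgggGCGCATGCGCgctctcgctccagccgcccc
Ndufa11, chr17:56717682-56717731, plus strand, palindrome at positions -60 to -51: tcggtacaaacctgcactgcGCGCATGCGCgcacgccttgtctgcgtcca
Ndufaf4, chr4:24897950-24897999, plus strand, palindrome at positions -113 to -104: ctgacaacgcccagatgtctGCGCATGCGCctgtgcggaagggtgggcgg

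The question of how much of its RNA a cell type gives to the respiratory chain was answered by the share of all UMIs of a cluster that fell on the 90 genes. Summed over clusters, cells outside the leukocytes had the larger share. Over clusters 1, 3 and 13 the genes held 4.86% of UMIs in the DFMO library and 5.06% in the water library, and over the 14 leukocyte clusters 3.42% and 3.50%. The ratio of these shares was 1.42 in DFMO and 1.45 in water. Cells of the Ptprc-low clusters were also deeper, with a median of 18281 (DFMO) and 16352 (water) UMIs. With every cell thinned to 1000 UMIs and shallower cells left out, the shares were 4.83% and 4.99% in the Ptprc-low clusters and 3.18% and 3.40% in the leukocyte clusters.

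Cluster 13, led by Egfl7 and Cxcl9, had the largest share, 6.05% (5.99 to 6.11%) in DFMO and 5.81% (5.78 to 5.85%) in water. The dividing cluster 1 followed with 5.11% and 5.31%, and cluster 16, unnamed and led by Mmp3 and Ear2, had 5.06% and 4.92%. The fibroblast-like cluster 2 had 4.53% and 4.65%. Cluster 3, led by hypoxia-induced genes such as Ero1l, Car9 and Slc2a1, had 4.29% and 4.48%, the lowest share of the Ptprc-low clusters in both libraries.

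Among lymphocytes, the dividing CD8 T cell-like cluster 15 was highest with 4.33% (DFMO) and 4.24% (water). Clusters 5, 6, 8 and 12, of CD8 T cell-like and NK cell-like cells, lay between 3.72% and 4.08% over both libraries. The regulatory T-like cluster 9 had 3.49% and 3.42%, the CD4 T cell-like cluster 4 had 3.41% and 3.43%, and the B cell-like cluster 0 had 2.75% and 2.88%. Neighbouring T cell clusters differed by no more than the gap between the libraries in several cases, whereas the B cell-like cluster lay below every T cell-like cluster in both libraries.

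Myeloid clusters were low. The monocyte and macrophage-like clusters 11 (Hp, Chil3), 7 (Ly6i, Il1b) and 10 (C1qa, Pf4, Arg1) had 3.23%, 3.019% and 2.64% in DFMO and 3.34%, 3.07% and 2.87% in water. The migratory dendritic cell-like cluster 18, with 27 and 63 cells, had 2.58% in both libraries. The share of cluster 13 was 2.34 times that of cluster 18 in DFMO and 2.25 times in water.

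**Figure D1:**
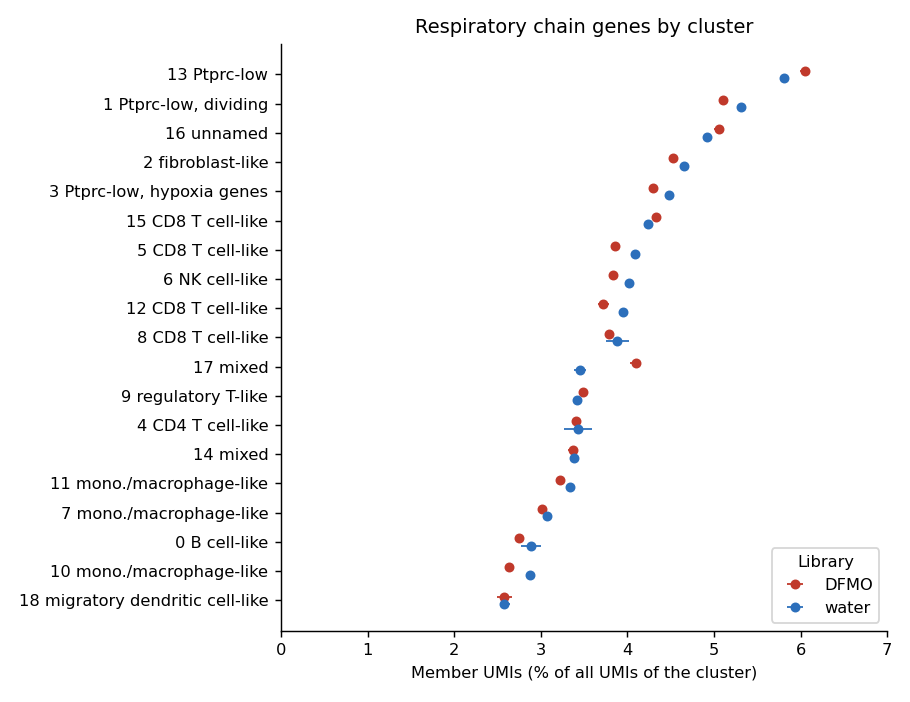
Share of all UMIs of a cluster that fell on the 90 respiratory chain genes (x axis, percent), for 19 clusters (y axis) and the 2 libraries; points are 1 library each and bars are 95% counting intervals. Cluster 13 sits highest at 6.05% and 5.81%, and cluster 18 lowest at 2.58% in both libraries.

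The complexes did not take equal parts in this order. Complex IV held 1.597% (DFMO) and 1.64% (water) of UMIs in the Ptprc-low clusters and 0.922% and 0.995% in the leukocyte clusters. Complex I held 1.33% and 1.39% against 0.970% and 0.998%, and complex V 1.45% and 1.53% against 1.12% and 1.11%. Complex III held 0.426% and 0.425% against 0.339% and 0.329%. Complex II, the smallest, held 0.064% and 0.067% in the Ptprc-low clusters and 0.064% and 0.065% in the leukocyte clusters, nearly the same level in both.

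As parts of the 90-gene total, complex IV made up 32.8% (DFMO) and 32.4% (water) in the Ptprc-low clusters and 27.0% and 28.5% in the leukocyte clusters, while complex V made up 29.7% and 30.3% against 32.9% and 31.7%. Over clusters with at least 50 cells in a library (16 in DFMO, 17 in water), the shares of complexes I and IV followed each other with Pearson's r of 0.966 and 0.959, and those of complexes III and V with 0.954 and 0.980. The share of complex II followed that of complex IV with 0.267 and 0.549. These coefficients describe clusters that share a library, its depth and its total, so that they are no independent points. The share of the 90 genes and the median UMIs of a cluster's cells had r of 0.539 and 0.596.

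Gene by gene, cluster 13 was the highest cluster of its library for 37 (DFMO) and 36 (water) of the 85 members with at least 100 UMIs in all kept cells of each library, 28 of them in both. Cluster 1 was highest for 10 and 15, 8 in both. The lowest cluster in DFMO was cluster 0 for 28 members, cluster 10 for 25 and cluster 7 for 13. In water, where cluster 18 had enough cells to count, it was lowest for 40, cluster 0 for 19 and cluster 10 for 15. The smaller of the 2 libraries' folds from lowest to highest cluster had a median of 2.75 over these 85 members and was at least 1.46 (Ndufs3, a core subunit of complex I). These counts and folds were not taken for all genes. They therefore describe the members only and cannot show whether the members differ from other genes.

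In complex I, Ndufa12 ranged widely. This accessory subunit takes the place of its paralog, the assembly factor Ndufaf2, late in the building of the complex. In cluster 13, Ndufa12 had 842 CPM (773 to 915) for DFMO and 821 CPM (780 to 864) for water, against 95.2 CPM (66.7 to 132) in cluster 11 of DFMO and 72.1 CPM (44.6 to 110.2) in cluster 18 of water. The range was 8.85-fold and 11.4-fold. Ndufaf2 was highest in the dividing cluster 1, at 112 and 113 CPM, and lowest at 8.60 CPM in cluster 7 of DFMO, on 3 UMIs, and 9.08 CPM in cluster 11 of water. Both genes were thus high outside the leukocytes and low in myeloid cells.

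Ndufs5, an accessory subunit of the membrane side, stood at 768 (DFMO) and 688 (water) CPM in cluster 13 against 152 CPM in cluster 0 of DFMO and 137 CPM in cluster 18 of water. Ndufb6, an accessory subunit of the membrane arm, stood at 731.6 and 692 CPM at its highest and at 149 and 113 CPM at its lowest. Of the 10 widest ranges, 5 belonged to assembly factors (Ndufaf1, Ndufaf2, Ndufaf5, Ndufaf6 and Ndufaf7), and 7 of the 10 rested on a lowest cluster with 3 UMIs or fewer in a library, so that their folds have little precision. Atp5s, a factor named with complex V, was another of these. Ndufa13, Ndufa7 and Ndufb9, the complex I members with the most UMIs over both libraries together, stood at 733.5 and 833 CPM, 634 and 736 CPM, and 529.9 and 686 CPM over all kept cells (DFMO and water). These are molecule counts from the 5' end and were not divided by transcript length.

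In complex II the subunits went different ways. Sdha is the flavoprotein that oxidises succinate in the citric acid cycle, Sdhb carries the iron-sulfur clusters, and Sdhc and Sdhd anchor the enzyme in the membrane. Sdha was low in the Ptprc-low clusters, at 61.7 CPM (DFMO) and 65.3 CPM (water), and higher in some lymphocyte clusters. It stood at 199 CPM (174 to 227) and 218 CPM (109 to 391) in the CD4 T cell-like cluster 4, at 157 and 207 CPM in the B cell-like cluster 0, and at 155 and 151 CPM in cluster 8, a CD8 T cell-like cluster led by Dapl1 and Lef1. The water values of these 3 clusters rested on 11, 18 and 12 UMIs. In the regulatory T-like cluster 9 Sdha stood at 153 and 73.8 CPM, and over all leukocyte clusters at 133 and 83.5 CPM.

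Sdhc, in contrast, stood at 161 and 162 CPM in the Ptprc-low clusters and 80.8 and 92.0 CPM in the leukocyte clusters, with 222 and 214 CPM in cluster 13. Sdhb stood at 256 and 283 CPM in the Ptprc-low clusters against 286 and 324 CPM in the leukocytes, and Sdhd at 157 and 163 CPM against 138 and 155 CPM. In the Ptprc-low clusters Sdhc was thus higher, and Sdha and Sdhb lower, than in the leukocyte clusters. Relative to its level, Sdha dropped more than Sdhb in both libraries.

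In complex III, the 3 core genes Uqcrc1, Uqcrc2 and Uqcrfs1 (the Rieske iron-sulfur protein) together held 0.058% (DFMO) and 0.061% (water) of UMIs in the Ptprc-low clusters and 0.074% and 0.068% in the leukocyte clusters. The 5 small subunits went the other way, with 0.368% and 0.364% against 0.266% and 0.261%. Uqcr11, one of the small ones, stood at 1089 and 861 CPM in cluster 13 against 211 CPM in cluster 0 of DFMO and 141 CPM in cluster 18 of water. Over all kept cells Uqcrh stood at 931 and 800.4 CPM, Uqcrq at 742 and 855 CPM and Uqcrb at 572 and 712 CPM.

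In complex IV, Cox8a stood at 4514 CPM (DFMO) and 4571 CPM (water) in cluster 13, and its lowest values were 1116 CPM in cluster 4 of DFMO and 1277 CPM in cluster 18 of water. Cox6c stood at 2972 and 2549 CPM in cluster 13 and at 618 and 553 CPM in the B cell-like cluster 0. Both encode small structural subunits of cytochrome c oxidase. Cox4i1, which encodes a large nuclear-encoded subunit, stood at 1505 and 1826 CPM over all kept cells.

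Cox7a2l is known as a factor in the joining of complexes III and IV into supercomplexes, which were not measured here. Its order of clusters differed from that of the complex IV sum. It was highest in the CD4 T cell-like cluster 4, at 829.7 CPM (777 to 885) and 834 CPM (601 to 1127), and in cluster 8, at 784 and 755 CPM, where the water values come from 38 and 49 cells. In cluster 13, the highest water cluster of at least 50 cells, it stood at 469 and 497 CPM. In the dividing cluster 1 it stood at 208 and 233 CPM, and in the macrophage-like cluster 10 at 190.3 and 174 CPM.

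In complex V, Atp5b, the catalytic beta subunit, stood at 1394 (DFMO) and 1403 (water) CPM in cluster 13 and at 299 and 283 CPM in the macrophage-like cluster 10. The ring of c subunits that turns with the proton flow is encoded by Atp5g1, Atp5g2 and Atp5g3, whose products differ in the import signal and share the mature peptide. Atp5g1 gave 22.8% and 22.9% of the UMIs of the trio in the Ptprc-low clusters and 23.3% and 24.1% in the monocyte and macrophage-like clusters. In the B cell-like cluster 0 it gave 14.9% and 16.4%, and in the NK cell-like cluster 6 15.8% and 15.3%. Atp5g2 gave 60.8% and 62.1% in the dendritic cell-like cluster 18 against 38.8% and 39.7% in the monocyte and macrophage-like clusters. Atp5g2 shares 87.7% of its 31-base words with transcripts of other genes, mostly Gm10175, so that its counts depend on how the deposited counting assigned such reads.

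**Figure D2:**
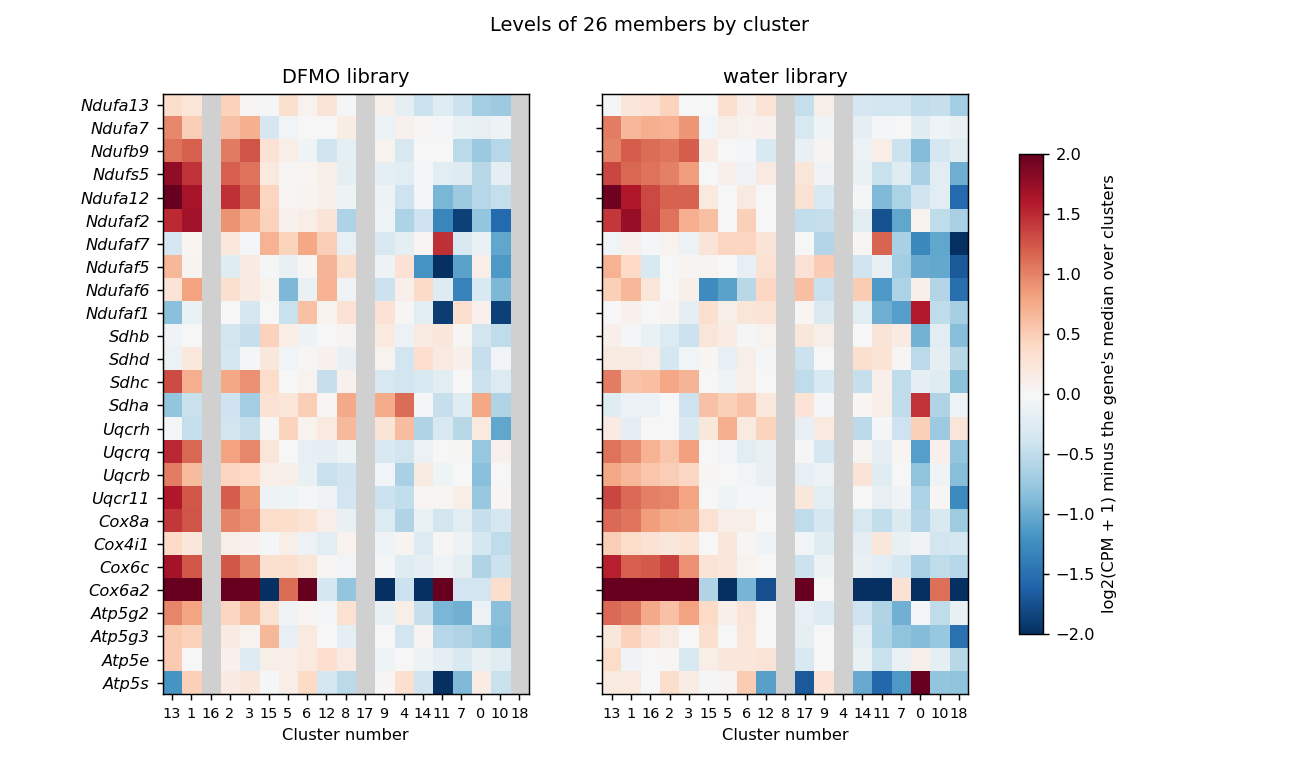
Levels of 26 members named by rule (rows, ordered by complex) in each cluster (columns, ordered by the 90-gene share), DFMO library at left and water library at right; colour is log2(CPM + 1) minus the gene's median over clusters, saturating at 2 either way, and grey marks clusters with under 50 cells. Ndufa12, Uqcr11, Cox8a and Cox6c are red in clusters 13, 1, 2 and 3 of both libraries, while Sdha is blue in cluster 3 and red in clusters such as 0 that hold lymphocytes.

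To set these ranges against other genes, a gene was counted where it was at least 1.5-fold higher, or lower, in both libraries, among genes counted at least 100 times in the cells compared. Of the Ptprc-low clusters over the leukocyte clusters, 27 of 85 members were higher and 0 lower, where 27.1% of all 10264 genes were higher and 23.7% lower. The count of higher members was near the background, and the count of lower members below it. The median log2 ratio over members was 0.38 (DFMO) and 0.44 (water), and over all genes -0.03 and 0.20. By complex, the higher members were 14 of 44 in complex I, 1 of 4 in II, 3 of 8 in III, 6 of 13 in IV and 3 of 16 in V. Examples besides Cox6a2 were Ndufaf2 (1.75 and 1.73), Ndufa12 (1.72 and 1.68), Ndufb6 (1.49 and 1.29) and Ndufb9 (1.43 and 1.31). Sdha had log2 ratios of -1.11 and -0.36. The fibroblast-like cluster 2 against the leukocytes gave 21 of 85 higher and 2 lower, Atp5f1 (stalk subunit b) at -0.90 and -0.73 and Uqcrfs1 at -0.88 and -0.70, with a background of 23.6% and 24.2%.

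Between the Ptprc-low clusters, the dividing cluster 1 over the hypoxia-gene cluster 3 gave 7 of 85 members higher and 2 lower, with a background of 11.7% and 4.54%. The higher ones were Ndufaf2 (0.99 and 1.04), Ndufa5 (1.05 and 0.95), Atp5g1 (0.73 and 0.68), Ndufaf4, Ndufaf6, Uqcr10 and Atp5k. The lower ones were Ndufv3, an accessory subunit beside the NADH-binding site (-0.85 and -0.79), and Cox7a2l (-0.74 and -0.66). The medians over members, 0.26 and 0.27, stood above those over all genes, 0.15 and 0.10. The 10 hypoxia markers summed to 1065 (DFMO) and 1361 (water) CPM in cluster 1 and to 6542 and 6342 CPM in cluster 3, and the 10 division markers to 2480.5 and 2585 CPM against 196 and 197 CPM, and the part of either in these differences was not tested.

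Among macrophage-like cells, the C1qa and Arg1 cluster 10 over the Hp and Chil3 cluster 11 gave 1 of 66 members higher and 13 lower, with a background of 16.5% and 29.3%. The median over members, -0.31 and -0.20, was close to that over all genes, -0.29 and -0.25. Ndufa4, a subunit of complex IV, was the lowest. In cluster 10 its level was 196 CPM (153 to 247) for DFMO and 210.3 CPM (191 to 231) for water, and in cluster 11 616 CPM (539 to 700.3) and 666 CPM (627 to 706), log2 ratios of -1.65 and -1.66. Uqcrc1 followed with -1.46 and -0.92 and Uqcrfs1 with -1.02 and -1.24, both of the core of complex III. The others were Uqcrc2, Uqcrh, Atp5a1, Atp5b, Atp5c1, Atp5f1, Atp5h, Ndufs8, Ndufb5 and Ndufb11. Ndufv3 was the member that was higher, by 1.247 and 0.979 on the log2 scale.

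Between the CD8 T cell-like clusters compared, few of these genes differed by 1.5-fold in both libraries. The CD4 T cell-like and regulatory T-like clusters were not compared in this way, and the water values of cluster 8 come from 49 cells. Cluster 5 (Gzmf, Pdcd1 and Lag3, genes of activated or chronically stimulated CD8 T cells) over cluster 8 (Dapl1 and Lef1, genes of resting T cells) gave 0 of 76 members higher and 1 lower, Cox7a2l at -0.91 and -0.90, against a background of 14.5% and 7.41%. The dividing cluster 15 over cluster 5 gave 0 of 76 either way, against 9.62% and 6.63% of all genes. Cluster 15 had the larger summed share nevertheless, 4.33% and 4.24% against 3.86% and 4.08%, and its member median was 0.22 and 0.09.

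Among the isoforms of complex IV, Cox6a2 had the widest range over clusters of the 85 members considered. Cox6a2, the heart and skeletal muscle isoform of subunit 6a, lies on chr7:128205435-128206387 (minus strand, mm10), and the general isoform Cox6a1 on chr5:115345642-115348981 (minus strand). As a share of the UMIs of both, Cox6a2 made up 31.9% (31.1 to 32.7%) in DFMO and 26.4% (26.0 to 26.8%) in water over the Ptprc-low clusters. It made up 3.09% and 4.48% over the leukocyte clusters and 0.772% (8 of 1036 UMIs) and 0% (0 of 52 UMIs, which allows up to 6.85%) in the B cell-like cluster 0.

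By level, Cox6a2 stood at 607 CPM (DFMO) and 605 CPM (water) in the hypoxia-gene cluster 3, 438 and 330.1 CPM in cluster 1, 519 and 308 CPM in cluster 13, 475 and 326 CPM in cluster 16, and 291 and 212 CPM in the fibroblast-like cluster 2. Its share of the pair was highest in cluster 3 among these, with 39.2% and 35.9%, and lowest in cluster 2, with 22.8% and 16.2%. In clusters 1, 13 and 16 it was 27.4% and 21.2%, 28.5% and 20.4%, and 32.3% and 22.6%. Cox6a1 stood at 1086 and 1176 CPM in the Ptprc-low clusters and at 504 and 635 CPM in the leukocytes.

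At least 1 Cox6a2 UMI was seen in 77.0% (DFMO) and 72.4% (water) of Ptprc-low cells and in 67.7% and 58.0% of fibroblast-like cells. In the B cell-like cluster, which should lack the gene, it was seen in 8 of 1485 cells (0.539%) and 0 of 57 cells, at median depths of 1764 and 1314 UMIs against 18281 and 16352 in the Ptprc-low cells. With cells thinned to 1000 UMIs the values were 32.1% and 27.4% in Ptprc-low cells, 21.4% and 13.9% in fibroblast-like cells, and 0.207% and 0% in the B cell-like cluster. The order of the 3 kinds of cell was thus unaltered at equal depth.

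The mixed cluster 17, whose markers were those of B cells, plasma cells and dendritic cells, was the leukocyte cluster with a high Cox6a2 share, 27.0% and 61.1%. The shares over all leukocyte clusters given above include this cluster and do not apply evenly to the others. Cox6a2 is known as a gene of plasmacytoid dendritic cells, and the cluster was split after its values were seen. Cells with a UMI of Siglech, a plasmacytoid marker, and none of the B cell genes Cd79a and Cd79b had 5299.5 CPM of Cox6a2 in DFMO (3 of 3 cells with a UMI) and 1685 CPM in water (16 of 23 cells). Cells with a Cd79a or Cd79b UMI and no Siglech UMI, 35 and 8 in number, had 0 UMIs of Cox6a2, with upper limits of 11.7 and 35.1 CPM. Cells with UMIs of both kinds, 3 and 10 in number, had 2651 and 2248 CPM. The libraries thus differed in this cluster both in the share of Cox6a2 and in the mixture of cells.

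Cox4i2, an isoform of subunit 4 known from lung and from responses to low oxygen, lies on chr2:152754173-152765037 (plus strand). It was counted 17 times in DFMO and 144 times in water in all, nearly all of it in macrophage-like cells. In cluster 10 its level was 32.6 CPM (16.9 to 57.0) and 53.5 CPM (43.8 to 64.5), and in cluster 7 at 14.3 and 11.9 CPM. In cluster 11, the remaining macrophage-like cluster, it was at 0 in both libraries. In the Ptprc-low clusters it was at 0 and 0.067 CPM. The 10 hypoxia markers summed to 2806 (DFMO) and 1758 (water) CPM in cluster 10 and to 668 and 508 CPM in cluster 7. They summed to 174 and 280 CPM in cluster 11 and to 6542 and 6342 CPM in the Ptprc-low cluster 3. The part of hypoxia in the level of Cox4i2 was not tested.

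Of the cells of cluster 10, 8 of 66 in DFMO and 49 of 377 in water had a Cox4i2 UMI (3.23% and 5.44% when thinned to 1000 UMIs), against 0 of 1485 and 0 of 57 in the B cell-like cluster. The remaining isoforms were rare: Cox6b2, known from testis, had 64 and 135 UMIs, Cox7a1, the muscle isoform of Cox7a2, 45 and 100, Ndufa4l2 12 and 64, and Cox7b2 1 and 23. Cox7b2 and Ndufa4l2 are the 2 members with under 100 UMIs over both libraries.

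**Figure D3:**
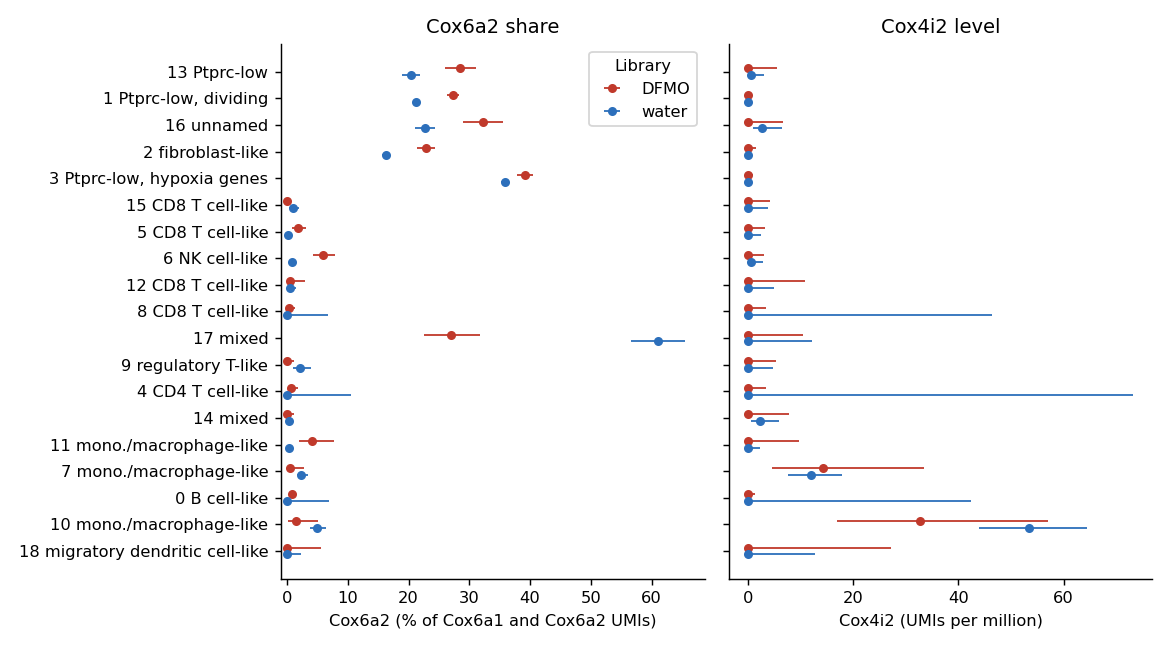
Left, Cox6a2 as a percentage of Cox6a1 and Cox6a2 UMIs; right, Cox4i2 in CPM, by cluster (y axis) and library, with 95% counting intervals as bars. Cox6a2 exceeds 16% in clusters 13, 1, 16, 2 and 3 and in the mixed cluster 17, while Cox4i2 is clearly above 0 in the macrophage-like clusters 7 and 10.

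The comparison of DFMO with water was made over all kept cells and within cells of 1 kind. Over all kept cells the 90 genes held 4.14% of UMIs in DFMO and 4.59% in water, a log2 ratio of -0.15 (-0.153 to -0.146). Within the Ptprc-low clusters it was -0.06 (-0.062 to -0.053), and the leukocyte shares of 3.42% and 3.50% lay as near. The gap within either kind of cell was smaller than over all kept cells, where the libraries also differ in their part of Ptprc-low cells. Over all kept cells 0 of 88 members were at least 1.5-fold higher and 1 lower (Cox4i2, 0.727 CPM against 2.47 CPM), where 15.8% of all genes were higher and 8.31% lower. The median log2 ratio was -0.12 over members and 0.05 over all genes. The members at the ends were Ndufa3 (0.56), Atp5k (0.56), Ndufs1 (0.44), Sdha (0.43) and Cox7a2l (0.37) on the high side and, after Cox4i2, Ndufab1 (-0.51), Ndufa12 (-0.45), Ndufb6 (-0.42) and Atp5g1 (-0.42) on the low side.

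Within cell types the 90 genes moved little. In the Ptprc-low clusters 1 of 85 members was at least 1.5-fold higher and 0 lower, where 2.73% of all genes were higher and 1.08% lower, which is near the background. The member median was -0.07, and that of all genes 0.05. The 8 B cell markers summed to 24.9 CPM (DFMO) and 1.31 CPM (water) in these clusters and the 10 division markers to 1510.5 and 1698 CPM, and their part in the ratios was not tested. The member medians in 8 sets of cells, all drawn from the same 2 libraries, were -0.07 in cluster 1, -0.06 in cluster 3, -0.08 in cluster 2, -0.11 in cluster 5, -0.13 in cluster 12, 0.04 in cluster 9, -0.09 in cluster 6 and -0.07 in the monocyte and macrophage-like cells. The value of cluster 9 turned to -0.06 with TMM library sizes and that of cluster 12 to 0.01 with coarser clusters. By complex in the Ptprc-low clusters, the log2 ratio of the sum was -0.07 (complex I), -0.08 (II), 0.00 (III), -0.04 (IV) and -0.08 (V).

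Parts of complex V differed from each other in this contrast. The 3 c-ring genes together stood at 0.481% (0.476 to 0.485%) of UMIs in DFMO and 0.559% (0.556 to 0.561%) in water in the Ptprc-low clusters, a log2 ratio of -0.22. The ratios in the other sets were -0.22 in cluster 1, -0.18 in cluster 3, -0.14 in cluster 2, -0.27 in cluster 5, -0.15 in cluster 12, -0.06 in cluster 9, -0.23 in cluster 6 and -0.20 in the monocyte and macrophage-like cells. The stalk genes Atp5f1, Atp5h, Atp5j and Atp5o-1 had -0.16 in the Ptprc-low clusters (0.276% against 0.308%). The 5 genes of the F1 head, which holds the catalytic sites, had 0.00 (0.458% in DFMO and 0.457% in water). This sum hides opposite directions, since 2 of the 5 genes had a counting interval above 0 and 2 had one below 0. Over the 8 sets of cells, the ratio of Atp5e was above 0 in 8 and that of Atp5d below 0 in 8.

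Atp5k had the highest ratio of all members in the Ptprc-low clusters. It lies on chr5:108433244-108434448 (minus strand) and encodes subunit e, which helps to pair ATP synthase complexes in the membrane. Atp5k stood at 304 CPM (DFMO) and 183 CPM (water) there, a log2 ratio of 0.73 (0.66 to 0.80). It was 0.74 in cluster 1, 0.72 in cluster 3, 0.70 in cluster 2, 0.82 in cluster 5, 0.37 (-0.07 to 0.79) in cluster 12, 0.37 (0.02 to 0.72) in cluster 9, 0.70 in cluster 6 and 0.51 in the monocyte and macrophage-like cells. The CD8 T cell-like cluster 12 and the regulatory T-like cluster 9 had the smallest ratios, and the counting interval of cluster 12 included 0.

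Cox7c, a small subunit of complex IV on chr13:86044816-86046904 (minus strand), stood at 1172 CPM (DFMO) and 870.4 CPM (water) in the Ptprc-low clusters, a log2 ratio of 0.43 (0.40 to 0.46). Its ratios ran from 0.35 in cluster 2 to 0.60 (0.47 to 0.73) in the monocyte and macrophage-like cells. Ndufa3, an accessory subunit of complex I on chr7:3617373-3620327 (plus strand), stood at 332 and 247 CPM, 0.42 (0.36 to 0.49), with ratios from 0.37 in cluster 3 to 0.52 in cluster 2. Ndufs1, the largest core subunit of complex I, was much lower, at 44.4 and 33.3 CPM, with 0.42 (0.25 to 0.58).

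On the low side, Ndufab1, the mitochondrial acyl carrier protein, which serves in complex I and in mitochondrial fatty acid synthesis, stood at 446 CPM (DFMO) and 574 CPM (water) in the Ptprc-low clusters, a log2 ratio of -0.36 (-0.41 to -0.32). It lies on chr7:122085403-122101886 (minus strand). Its ratios ran from -0.46 in the NK cell-like cluster 6 to -0.21 in cluster 2, and the intervals of clusters 5, 9 and 12 included 0. Ndufb10, an accessory subunit, stood at 271 and 342 CPM (-0.34), and Cox5a, which encodes a subunit of the complex IV core region, at 769 and 920.4 CPM (-0.26). The assembly factors Ndufaf6 and Ndufaf4 had -0.35 and -0.27.

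The relation of the ratio to the transcript was described as well. The annotated transcript lengths were 321.5 bases for Atp5k, 540 for Cox7c, 433 for Ndufa3 and 2625.5 for Ndufs1 on the high side, and 2447.5 for Ndufab1, 732 for Ndufb10 and 645 for Cox5a on the low side. Over the 74 members with a ratio in every set, Spearman's rho of the member's median ratio over sets was -0.139 with transcript length and -0.161 with GC content, across genes that are not independent. Of its annotated 31-base words, Atp5k shared 18.9% with transcripts of other genes, mostly the pseudogene Atp5k-ps2, Cox7c 25.2%, Ndufab1 12.4% and Ndufa3 0%. Reads shared with other genes were not measured, and the part of such sharing in the ratios was not tested.

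Cox6a2 was higher in DFMO in some of the cells that express it. The log2 ratio was 0.41 (0.34 to 0.48) in cluster 1 and 0.46 (0.34 to 0.58) in the fibroblast-like cluster 2, and 0.01 (-0.07 to 0.08) in the hypoxia-gene cluster 3. In the Ptprc-low clusters together it was 0.27 (0.22 to 0.32), and over all kept cells, where fewer of the cells were Ptprc-low in DFMO, -0.16. The direction for Cox6a2 thus depended on which cells were summed.

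**Figure D4:**
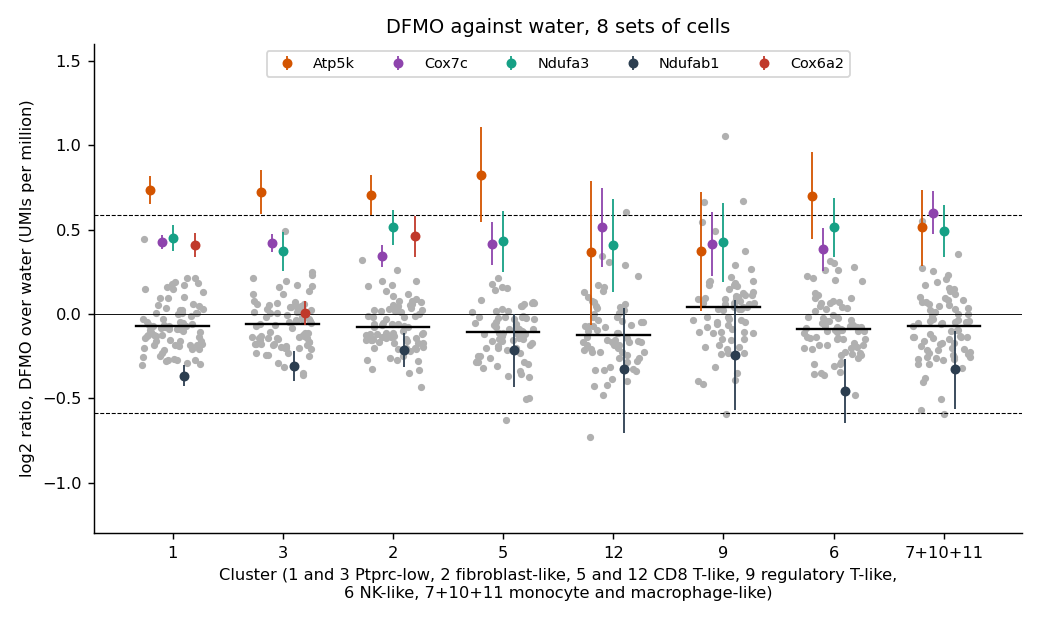
Log2 ratio of DFMO over water (y axis) for each member with at least 100 UMIs in a set of cells (x axis, 8 sets from the same 2 libraries); black bars are the medians over members, dashed lines mark 1.5-fold, and coloured points carry 95% counting intervals. Atp5k, Cox7c and Ndufa3 lie above the median in every set and Ndufab1 below it, while most members lie within the dashed lines.

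In T and NK cells the counts past 1.5-fold were small. Cluster 5 had 1 of 78 members higher (Atp5k) and 1 lower (Ndufa9, -0.63, with -1.08 to -0.19), against 2.81% and 2.25% of all genes. Cluster 12 had 1 of 74 higher (Uqcrc2, 0.60) and 1 lower (Ndufb3, -0.73), against 3.33% and 2.89%. Cluster 6 had 1 of 80 higher (Atp5k) and 0 lower, against 3.26% and 2.76%. In cluster 6 the 10 division markers summed to 892 CPM in DFMO and 1601 CPM in water, and their part in its ratios was not tested. All 3 were near the background.

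The regulatory T-like cluster 9, with 213 DFMO and 276 water cells, had 3 of 76 members higher and 1 lower, against 8.36% and 5.6% of all genes. Sdha was the highest, with 153 CPM (125 to 185) for DFMO and 73.8 CPM (55.9 to 95.6) for water, a log2 ratio of 1.05 (0.58 to 1.54). Ndufa1, an accessory subunit of complex I, was also among the higher ones (0.66), and Ndufaf3 was the lower one (-0.59). Cox7a2l had 0.54.

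The markers in cluster 9 moved as well. The 7 CD4 T cell markers summed to 4644 CPM in DFMO and 3704 CPM in water, with Tcf7 at 179 and 25.9 CPM, Cd40lg at 149 and 44.0 CPM and Lef1 at 137 and 64.7 CPM. Of the CD4 list, Cd3d alone was not higher in DFMO, at 1704 and 1724 CPM. The regulatory T cell markers summed to 4814 and 6651 CPM. Foxp3 (414 and 402 CPM) and Ikzf2 (420 and 421 CPM) were level, and Cd4, on both lists, was higher in DFMO (284 and 206 CPM). Lower were Tnfrsf4 (1589 and 2432 CPM), Tnfrsf18 (1044 and 1682 CPM), Ctla4 (730 and 1057 CPM) and Il2ra (332 and 452 CPM). The division markers summed to 500.1 and 939 CPM. Sdha and Cox7a2l stood highest in the CD4 T cell-like cluster 4, as given above, and the part of the mixture of T cells in their ratios was not tested.

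In the monocyte and macrophage-like cells 1 of 81 members was higher (Cox7c, 610.0 CPM against 402 CPM) and 1 lower (Cox4i2, 15.5 CPM against 23.4 CPM, -0.59 with -1.41 to 0.14), against 3.48% and 3.93% of all genes. These cells sum clusters 7, 10 and 11, with 54, 66 and 65 cells in DFMO and 511, 377 and 336 in water, and Cox4i2 differed between them as given above. The 10 hypoxia markers summed to 1215 and 892 CPM and the 9 fibroblast markers to 36.5 and 133 CPM. The part of the mixture and of these markers in the ratios was not tested. The fibroblast-like cluster 2 had 1 of 85 higher (Atp5k) and 0 lower, against 3.9% and 3.76%. Clusters 1 and 3 each had 1 of 85 higher, Atp5k again, and 0 lower, against 3.96% and 1.18% in cluster 1 and 2.55% and 1.22% in cluster 3.

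Genes around the chain, outside the naming rule, were taken from 4 lists. In the Ptprc-low clusters, the 15 genes of electron carriers, coenzyme Q synthesis and cytochrome c1 had a median log2 ratio of -0.02, with 0 past 1.5-fold either way, and Cyc1, cytochrome c1 of complex III, stood at 348 CPM (DFMO) and 404 CPM (water), -0.22. Of 38 assembly factors 1 was past 1.5-fold, Sco2, a copper chaperone of complex IV, at 0.77, and the median was -0.06. Cox17, which delivers copper to complex IV, stood at 307 and 205 CPM, 0.58. The 17 citric acid cycle genes had a median of 0.01 and 0 past 1.5-fold, with Cs (citrate synthase) at 0.19 and Suclg1 at -0.22. Of 13 regulators of mitochondrial gene expression 12 could be counted, with a median of 0.11 and 0 past 1.5-fold, among them Tfam at -0.12, Hif1a at 0.20 and Ppargc1b at 0.38. Of all genes in these clusters, 2.73% were higher and 1.08% lower, and the median was 0.045. With shares this small, the counts from such short lists carry little information.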

How the data were processed

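Values came from the deposited raw UMI count matrix (10720 cells, 17775 genes) and the deposited cell table, which names each cell's group. Per the submitters' processing notes, Cell Ranger 3.02, Scanpy 1.4.4 and mm10 were used. The matrix holds 0 ribosomal protein genes, and 37 barcode sequences occur in both libraries. The genes, lists and alternatives were chosen with earlier results of these data known.

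Cells with at least 200 genes were kept. Scrublet (scanpy 1.11.5, rate 0.05) removed 51 DFMO and 97 water cells and detected 26.7% and 35.0% of simulated doublets, so doublets may remain. Clusters came from 2000 variable genes without receptor segments and members, 30 components, 15 neighbours and Leiden 1.0 (leidenalg 0.10.2, Python 3.11.15). A marker counted at 2 times the level elsewhere and in 0.1 of cells. A name needed the first marker of its list, at least 3 markers, and at least as many markers met as not met. The markers among the 10 leading genes only chose between the CD4 and regulatory T cell names. This rule was set after clusters were seen.

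UMIs were summed per library and cluster. Intervals (scipy 1.17.1) were exact Poisson for CPM, Clopper-Pearson for shares and conditional binomial for ratios. Only the ratio intervals were run on simulated data. Those counts were drawn with Poisson error alone, so the run says nothing about variation between cells, mice or libraries. Ratios used sets with at least 100 cells in each library. Named were isoform pairs, complex II, the 5 highest and 5 lowest ratios per set, the 10 widest ranges, the 3 most counted members per complex, and the 2 highest and 2 lowest of each outside list, given in part; other genes were named after their values were seen. Coordinates are from GENCODE M21 (mm10). Alternatives included TMM (edgeR 4.0.16, R 4.3.3, library sizes only). The values of 1 gene that the rule would name are not reported here.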

Additional observations from a re-analysis of the deposited data

How the results depend on the processing

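Limits: 1 library per group, a depth gap between libraries, few cells of some clusters, and cluster names rebuilt from markers. No paired analysis was possible because the groups held 1 library each. Of 790 single-gene ratios under alternatives, 758 stayed within their counting interval and 32 moved. Of the member shares of UMIs, 18 stayed and 78 moved. Of the counts past the fold, 167 stayed and 71 moved. Of the member medians 88 stayed and 10 moved, while cluster 12 turned to 0.0109 with Leiden 0.5. The median of cluster 9 turned to -0.0563 with TMM. The cause was not tested where a value moved.

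With TMM the member median was -0.1711 over all kept cells, -0.1374 in the Ptprc-low clusters, -0.1593 in cluster 5 and -0.1436 in cluster 6. Cluster 9 had 0.10 with doublets kept and 0.0987 with at least 500 genes per cell. With a mean over cells the median over all kept cells was -0.2445. In DFMO the ratio of the Ptprc-low to the leukocyte share was 1.52 when thinned and 1.51 as a mean over cells.

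Counts past the fold, higher then lower in DFMO, moved as follows. For all genes, the share past the fold was taken with the main settings only. Counts under other settings therefore have no background. They cannot show whether the members moved more or less than other genes. With the looser fold limit tried they were 5 and 11 over all kept cells, 4 and 3 in the Ptprc-low clusters, 5 and 6 in the monocyte and macrophage-like cells, 4 and 4 in cluster 2, 3 and 7 in cluster 5, 3 and 6 in cluster 6, and 9 and 5 in cluster 9. With a fold of 2 they were 1 and 0 in cluster 9, 0 and 0 in the monocyte and macrophage-like cells and cluster 5, and 0 higher in the Ptprc-low clusters and in clusters 2 and 6.

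With a mean over cells they were 3 and 15 over all kept cells and 2 and 0 in the monocyte and macrophage-like cells, with 1 lower in clusters 2 and 6 and 0 lower in cluster 5. With at least 30 UMIs there were 2 lower over all kept cells and in the monocyte and macrophage-like cells, and 2 higher in clusters 2 and 6. With at least 300 UMIs there were 0 lower over all kept cells, in the monocyte and macrophage-like cells and in clusters 5 and 9, and 1 higher in cluster 9. With TMM they were 0 and 2 in the monocyte and macrophage-like cells, with 1 higher in cluster 9.

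The monocyte and macrophage-like cells had 0 and 2 with at least 500 genes per cell and 2 and 2 with members among the variable genes. Cluster 5 had 0 lower with doublets kept, with Leiden 0.5 and with members among the variable genes, and 2 lower with at least 500 genes per cell and with Leiden 2.0.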

Other observations

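In the monocyte and macrophage-like cells, the genes around the chain with the highest and lowest log2 ratios of DFMO over water in their lists were Tmem126b, an assembly factor of complex I (0.83), and Sdhaf4, an assembly factor of complex II (-0.63). Among the other lists Coq10a stood at 0.63, Idh3a, a subunit of isocitrate dehydrogenase, at 0.53, and Yy1, a transcription factor, at 0.47. Cox17 stood at 0.47 in these cells, of which DFMO held 185. Of 22 assembly factors counted, 1 was at least 1.5-fold higher and 1 lower. Of 9 genes in the electron carrier list, 1 was higher, and 0 had a counting interval above 0. The citric acid cycle genes and the regulators had 0 past 1.5-fold either way. Of all genes, 3.48% were higher and 3.93% lower, so these extremes of short lists are no more than a description.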
